A study of Mus musculus with 6 samples.

Results

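Cadherins are calcium-dependent adhesion proteins that hold like cells together through their extracellular repeats and bind catenins through their cytoplasmic tails. In the developing kidney, mesenchymal nephron progenitors first form a polarised ball, the renal vesicle, and then a segmented tubule, and the set of cadherins a cell makes is known to change along this path. The genes described here are 8 cadherin genes, Cdh2, Cdh3, Cdh4, Cdh6, Cdh8, Cdh11, Cdh13 and Cdh15, of 27179 entries in the deposited table. They were chosen by name from the cadherin family, with earlier RPKM results of these libraries known, so their values and the genotype differences given for them are a description. Cdh2, Cdh3, Cdh4 and Cdh15 encode type I and Cdh6, Cdh8 and Cdh11 type II classical cadherins. Cdh13 encodes a lipid-anchored cadherin that lacks the cytoplasmic tail, so the name classical does not hold for it.

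RNA came from nephron progenitors that were sorted at E16.5 for a green fluorescent protein expressed from the Six2TGC transgene. Controls were Six2TGC, a transgene that drives this reporter and Cre recombinase in Six2-expressing cells, and mutants were Six2TGC;miR-17~92fl/fl, with floxed copies of a microRNA cluster that Cre removes. Both genotypes carry Six2TGC, and each has 3 libraries, each a pool of 4 embryos. No floxed copies appear in the control labels, and no strain is given, so removal of the cluster and other genetic differences between the groups cannot be told apart. Replicates are separate pools, and p-values measure the spread between these pools.

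Depth was between 27602025 and 36134381 reads per library. Mir17, the first microRNA of the targeted cluster, had 31, 26 and 16 reads in the controls and 2, 0 and 0 in mutants. Six2, which marks the sorted cells, was at 83.5, 69.9 and 104.0 RPKM for control pools, compared with 63.5, 57.0 and 77.0 for mutant pools. RPKM is reads per kilobase of gene and scaled to library depth, so levels of different genes can be set side by side.

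MicroRNAs of the targeted cluster pair with messenger RNAs mainly through their seed, bases 2 to 8. They are shown because complements of these seeds can be looked for in the cadherin transcripts. The mature sequences are those of RefSeq (GRCm38.p6, chromosome 14, plus strand), 6 of 6 were matched by name, and capitals mark the seed.
miR-17-5p: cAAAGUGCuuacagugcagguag
miR-20a-5p: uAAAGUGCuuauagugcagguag
miR-18a-5p: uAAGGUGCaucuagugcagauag
miR-19a-3p: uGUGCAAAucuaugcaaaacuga
miR-19b-3p: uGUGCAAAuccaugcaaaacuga
miR-92a-3p: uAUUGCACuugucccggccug
By seed these 6 microRNAs form 4 groups, miR-17 with miR-20a, miR-18a alone, miR-19a with miR-19b, and miR-92a alone.

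Complements of the 4 seeds were searched on the transcript strand, using for each of the 8 genes its longest 3' UTR in GENCODE M21 (GRCm38): GCACTTT for miR-17 and miR-20a, GCACCTT for miR-18a, TTTGCAC for the miR-19 pair, and GTGCAAT for miR-92a. Cdh6 held 2 matches and Cdh4 held 1, and the other 6 genes held 0. Both genes have a match to the seed of miR-17 and miR-20a, and Cdh6 also has one to that of miR-18a. The sites are shown 5' to 3' with the match in capitals, to compare their flanks.
Cdh4, bases 1229 to 1235 of the 3' UTR: gagctggcaggGCACTTTacca
Cdh6, bases 2234 to 2240 of the 3' UTR: tcacaagaactGCACTTTacac
Cdh6, bases 4726 to 4732 of the 3' UTR: atatatctggaGCACCTTctgt
Cdh6 and Cdh4 also have the longest 3' UTRs of the 8, with 5499 and 3455 bases against 374 to 2219 in the others. Among tested genes with a 3' UTR within 80% to 125% of that length, 42.6% of 605 held GCACTTT and 28.6% held GCACCTT for Cdh6, and 30.0% of 1433 held GCACTTT for Cdh4. Over all 11548 tested genes with a 3' UTR, 15% held GCACTTT, 9.4% GCACCTT, 13.9% TTTGCAC and 7.96% GTGCAAT. The letters are a description of the annotated transcripts, and pairing with a microRNA was not measured.

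The 8 levels spanned more than 3 orders of magnitude and kept nearly the same order in both genotypes. Cdh11, the mesenchymal cadherin also called OB-cadherin, was by far the highest, with 199.0 ± 3.74 RPKM in control and 194.0 ± 5.88 in mutant pools (SD, n = 3 each). Its mean was at or above that of 99.7% of all entries. Cdh2, which encodes N-cadherin, followed with 29.3 ± 1.91 and 28.5 ± 2.02 RPKM (SD, n = 3). Cdh4, which encodes R-cadherin, came next, and then Cdh6, which encodes the K-cadherin of renal vesicles and early proximal tubules. In controls no library of one of these 4 genes overlapped those of the next. In mutants Cdh4 and Cdh6 overlapped, and Cdh4 was then 1.27 times as high as Cdh6, against 1.96 times in controls. Cdh13 and Cdh3 overlapped each other in both genotypes and exchanged places, and Cdh15 and Cdh8 were lowest in both.

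The summed level of the 8 genes was 244.0, 245.0 and 251.0 RPKM across controls, against 242.0, 245.0 and 256.0 across mutants. The groups overlap in this sum. Cdh11 made up 80.2%, 81.4% and 80.8% of it among controls, against 77.2%, 80.4% and 76.9% among mutants. Cdh6 made up 2.28%, 2.32% and 2.04% for controls, against 4.42%, 3.38% and 4.92% for mutants.

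**Figure D1:**
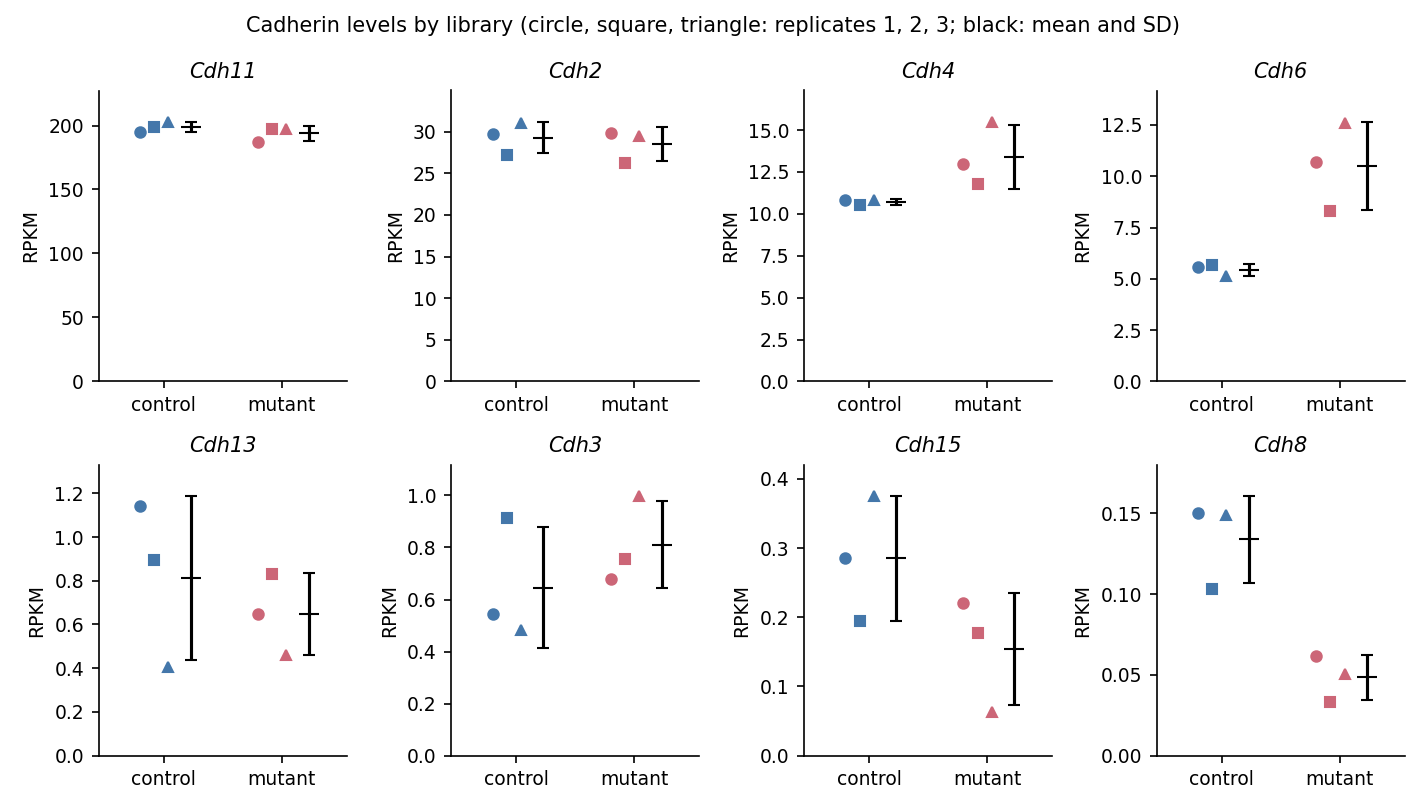
RPKM of each of the 8 cadherin genes in the 3 control (blue) and 3 mutant (red) libraries, each panel with its own linear axis from 0 and black marks for the mean and SD. Cdh6, Cdh4 and Cdh8 are the panels in which the colours do not overlap, with Cdh6 between 5.12 and 5.68 RPKM in controls and between 8.3 and 12.6 in mutants.

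Among the tested members Cdh6 had the largest genotype difference. This gene (Entrez Gene 12563, chromosome 15, 13028699 to 13176407, mm10) encodes a type II cadherin known from the renal vesicle and the cells that form the proximal tubule. It was at 5.56, 5.68 and 5.12 RPKM for control pools, compared with 10.7, 8.3 and 12.6 for mutant pools. Every mutant library lay above every control, and the mutants spread more (SD 2.16 against 0.292 RPKM). Its reads numbered 431, 540 and 379 in controls and 852, 607 and 916 in mutants, a ratio of read rates of 1.93 (95% interval 1.8 to 2.06, for counting error only). In limma it rose by 0.87 on the log2 scale, standard error 0.16 (95% interval 0.51 to 1.2, adjusted p 0.0146). Leaving out mutant replicate 1 ended the call (limma adjusted p 0.0776), as did leaving out mutant replicate 3 (0.0576) and using no filter on low values (0.0757); it was kept in the other 13 alternatives. The smallest gene length that turns the deposited Cdh6 values into whole reads is 2632 bases. Its annotated coding sequence has 2370 bases and the transcript with the longest 3' UTR 8167. If the length of 2632 bases is right, most of the 3' UTR with the seed matches is not in the counted entry.

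Cdh4 (Entrez Gene 12561, chromosome 2, 179442423 to 179899377) was at 10.8, 10.5 and 10.8 RPKM across controls, against 13.0, 11.8 and 15.5 across mutants. The groups do not overlap, and the controls have an SD of 0.163 RPKM while the mutants have one of 1.93. Its log2 fold change was 0.30 (95% interval -0.0029 to 0.61), and it did not pass in limma (adjusted p 0.259, and 0.0776 to 0.494 over the alternatives). Mutant replicate 3 was the highest and mutant replicate 2 the lowest mutant for both Cdh4 and Cdh6. The ratio of Cdh4 to Cdh6 within a library was 1.95, 1.85 and 2.11 for controls, against 1.21, 1.42 and 1.23 for mutants.

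Cdh11 and Cdh2, which supply most of the cadherin RNA of these cells, showed no difference beyond their spread. Cdh11 (Entrez Gene 12552, chromosome 8, 102632095 to 102785493) was at 195.0, 199.0 and 203.0 RPKM for control pools, compared with 187.0, 197.0 and 197.0 for mutant pools, with overlapping groups. Its log2 fold change was -0.04 (95% interval -0.31 to 0.23, limma adjusted p 0.874). Cdh2 (Entrez Gene 12558, chromosome 18, 16588877 to 16809246) was at 29.7, 27.2 and 31.0 RPKM across controls, against 29.9, 26.2 and 29.5 across mutants. Its log2 fold change was also -0.04 (95% interval -0.31 to 0.23, limma adjusted p 0.877). These intervals bound the difference but do not show that the levels are equal. Of the 32-base words in Cdh11 transcripts 4.6% also occur in other genes, which for the other 7 members is at most 0.383%.

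Among all 13463 tested genes the median log2 fold change in the deposited values was -0.12, and 31.9% of genes lay above 0. Relative to that median Cdh6 was 1.0 higher, Cdh4 0.43 higher, Cdh3 0.33 higher, and Cdh2 and Cdh11 0.09 higher each. With median-of-ratios scaling the median of all genes moved by 0.11 to -0.01. Cdh2 and Cdh11 then turned to 0.08 and 0.09, while Cdh6 kept its direction and its call.

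**Figure D2:**
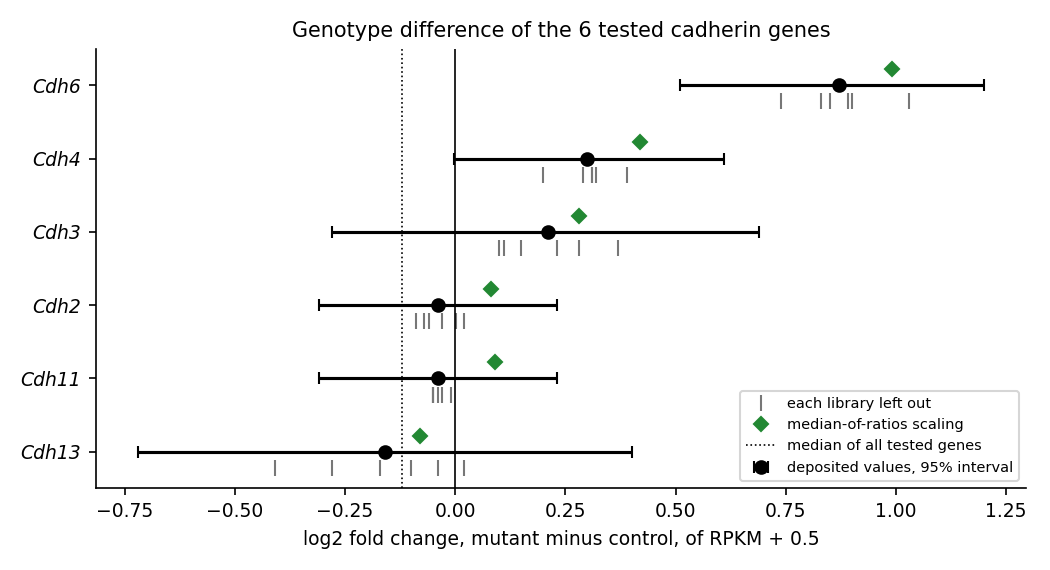
Log2 fold change, mutant minus control, of the 6 members that passed the filter on low values. Black points and bars give the deposited values with 95% intervals, grey ticks each library left out, green diamonds median-of-ratios scaling and the dotted line the median of all tested genes (-0.12). The bar of Cdh6 lies above 0, from 0.51 to 1.2, and those of Cdh2 and Cdh11 lie on both sides of 0.

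Of the 8 members 6 passed the filter of a mean of at least 0.5 RPKM. In limma 1 of the 6 was called higher and 0 lower. Over all tested genes 3.13% were called, 1.32% higher and 1.81% lower. The median of the 6 log2 fold changes was 0.08. Of the 6 tested members 2 had groups that did not overlap, Cdh4 and Cdh6, against 25.1% of all tested genes. Since the genes were listed with these results known, nothing is read from these counts.

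The 2 tested members near the filter were Cdh3 and Cdh13. Cdh3 (Entrez Gene 12560, chromosome 8, 106510852 to 106556911), which encodes the P-cadherin of epithelia, was at 0.543, 0.914 and 0.481 RPKM for control pools, compared with 0.678, 0.757 and 0.998 for mutant pools. The groups overlap (log2 fold change 0.21, 95% interval -0.28 to 0.69, limma adjusted p 0.612). Cdh13 (Entrez Gene 12554, chromosome 8, 118140017 to 119324929), which encodes the lipid-anchored T-cadherin, was at 1.14, 0.894 and 0.404 RPKM across controls, against 0.649, 0.833 and 0.459 across mutants. Control replicates 1 and 3 are its highest and lowest libraries, so the spread within controls exceeds the difference between genotypes (log2 fold change -0.16, 95% interval -0.72 to 0.40, limma adjusted p 0.732). Without control replicate 1 the sign turned (0.02).

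Cdh8 and Cdh15, with means of 0.0912 and 0.22 RPKM, lay under the filter and were not tested. Cdh8 (Entrez Gene 12564, chromosome 8, 99024471 to 99417666), a type II cadherin gene best known from the nervous system, was at 0.15, 0.103 and 0.149 RPKM for control pools, compared with 0.0615, 0.0335 and 0.0505 for mutant pools. That is 19, 16 and 18 reads against 8, 4 and 6, a ratio of read rates of 0.372 (95% interval 0.205 to 0.645, counting error only). The groups do not overlap, as in 10.7% of the 9766 entries above 0 and under the filter, and with no filter it did not pass (limma adjusted p 0.207). Cdh15 (Entrez Gene 12555, chromosome 8, 122848374 to 122867397), which encodes the M-cadherin of muscle precursors, had 24, 20 and 30 control reads and 19, 14 and 5 mutant reads, and its groups overlap in RPKM (0.195 to 0.375 and 0.0637 to 0.221). Of 7 myoblast genes 6 had a mean under 0.1 RPKM, among them the defining Myod1, Myf5 and Myog. The exception was Des, the gene of desmin, at 18.9 to 26.5 RPKM in controls and 9.16 to 14.9 in mutants. Des was called lower in limma (log2 fold change -0.94, adjusted p 0.0269), and its part in the Cdh15 values was not tested. Of 10 neuron and glia genes 5 were under 0.1 RPKM and 5 were tested. In limma 1 of these fell, Ngfr, a neurotrophin receptor gene, at 3.96, 3.44 and 4.93 RPKM across controls, against 1.96, 2.19 and 2.20 across mutants (log2 fold change -0.81, adjusted p 0.029). Stmn2, a neuronal stathmin gene, rose (log2 fold change 0.98, limma adjusted p 0.0409). Their part in the Cdh8 values was not tested.

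In RefSeq 5 of the 8 members lie on chromosome 8, Cdh8, Cdh11, Cdh3, Cdh13 and Cdh15 in this order, among 8 cadherin genes there. The genes of this row did not share a level or a direction: Cdh11 was among the most abundant transcripts and Cdh8 had the fewest reads of the 8. Cdh3 ends 46439 bases before Cdh1, which encodes the epithelial E-cadherin. The ratio of Cdh1 to Cdh3 within a library was 0.566, 0.473 and 0.218 for controls, against 0.585, 0.938 and 1.08 for mutants, with Cdh1 itself at 0.105 to 0.433 and 0.397 to 1.08 RPKM. The 2 groups of Cdh1 levels overlap. In RefSeq no other gene of the deposited table overlaps a member except A330008L17Rik, which overlaps Cdh8 and had a mean of 0.00685 RPKM.

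Markers of other cells that a sort can carry are given beside the members they concern. In bulk RNA, fewer cells of a type and less RNA per cell cannot be told apart. Cdh11 is also a gene of fibroblast-like cells, and the summed level of 15 stroma genes was 152.0, 232.0 and 79.7 RPKM across controls, against 162.0, 266.0 and 233.0 across mutants. Cdh11 did not move with it: control replicate 3 had the lowest stroma sum and, at 203.0 RPKM, the highest Cdh11 of the 6 libraries. Of the 15 stroma genes 0 were called in limma, with 4 at an unadjusted p under 0.05 and 0 by voom. Their log2 fold changes were above 0 in 14 of the 15, with a median of 0.59 against -0.12 over all genes.

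Sums of tubule genes, like Cdh6, did not overlap between the genotypes. The sum of 10 proximal tubule genes was 4.83, 6.23 and 4.23 RPKM for control pools, compared with 8.24, 7.51 and 16.9 for mutant pools. Slc34a1, the defining transporter gene of that list, had a mean of 0.319 RPKM. The sum of 10 loop of Henle and distal tubule genes was 1.52, 2.6 and 2.05 RPKM across controls, against 5.3, 5.54 and 13.6 across mutants, and 2 of 3 tested members rose, Slc12a1, a salt transporter gene, and Mal, a gene of apical membrane traffic. Renal vesicle genes, summed over 16, were at 203.0, 227.0 and 196.0 RPKM for control pools, compared with 259.0, 206.0 and 234.0 for mutant pools, and 1 of 14 tested rose, Emx2. Bmper, Pax8, Ccnd1 and Sfrp2 made up most of that sum. Of the 14 tested genes 13 had a log2 fold change above 0, with a median of 0.35 against -0.12 over all genes, and 6 had an unadjusted p under 0.05. The sum for 18 nephron progenitor genes was 903.0, 906.0 and 956.0 RPKM across controls, against 748.0, 699.0 and 807.0 across mutants. Of 16 tested genes of that list 2 fell in limma, Meox1 (log2 fold change -0.95, adjusted p 0.00271) and Capn6 (-0.54, 0.0449). In the same fit 1 rose, Tmem100 (0.95, 0.0441). Only 3 of the 16 had a log2 fold change above 0, with a median of -0.31 against -0.12 over all genes. An unadjusted limma p under 0.05 was reached by 8, and voom called 4. Like Cdh6 and Cdh4, the proximal and distal tubule sums were highest in mutant replicate 3. Macrophage genes, summed over 12, were between 6.0 and 10.1 RPKM in controls and between 16.6 and 18.5 in mutants, with 3 of 6 tested called higher. Mitochondrial ribosomal RNA took 26.96% to 30.35% and 32.23% to 38.24% of reads. The part of these in the Cdh6 result was not tested.

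**Figure D3:**
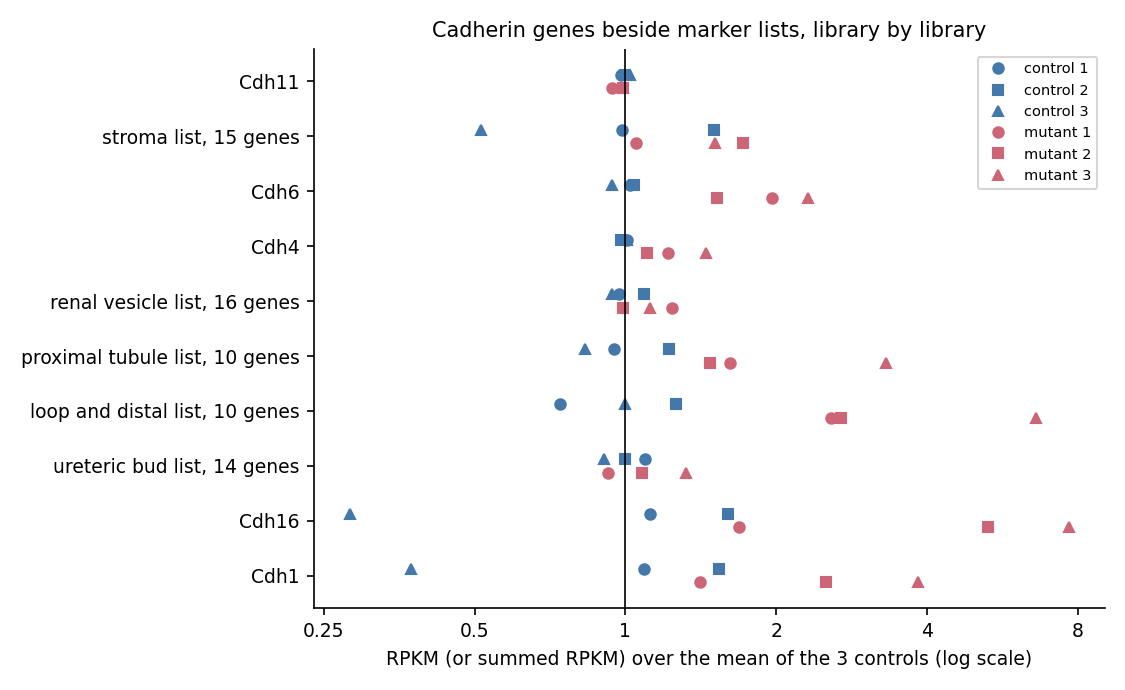
Levels of 5 cadherin genes and summed levels of 5 marker lists in each library, divided by the mean of the 3 controls, on a log scale (blue controls, red mutants, symbols for replicates). Cdh11 stays between 0.94 and 1.02 while the stroma sum goes from 0.516 to 1.72, and Cdh6 reaches 1.52 to 2.31 in mutants, where the proximal tubule sum reaches 1.47 to 3.32.

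The 15 other Cdh genes of the table did not exceed 2.04 RPKM in any library, and 3 of them passed the filter. Cdh16, which encodes the Ksp-cadherin of tubular epithelium, was at 0.297, 0.425 and 0.075 RPKM for control pools, compared with 0.448, 1.41 and 2.04 for mutant pools. Its groups do not overlap, mutant replicate 1 lies close to control replicate 2, and it did not pass (log2 fold change 1.15, limma adjusted p 0.0987). It passed without control replicate 2 (0.0432), without mutant replicate 1 (0.0276) and with voom (0.031). The fold changes of Cdh1 and of Cdh24, a type II gene, were 0.64 and -0.09 (log2), with limma adjusted p of 0.226 and 0.79. In limma 0 of the 3 were called, with 2 at an unadjusted p under 0.05 and 1 by voom. Cdh5, which encodes the VE-cadherin of endothelium, lay under the filter at 0.223 to 0.409 RPKM in controls and 0.282 to 0.818 in mutants. Ureteric bud and collecting duct genes, which share their tissue with Cdh1 and Cdh16, summed over 14 to between 30.0 and 36.1 RPKM in controls and between 30.5 and 43.6 in mutants. Hoxb7, at 19.2 to 26.3 RPKM, made up most of this sum. In limma 0 of 5 tested genes of the list were called (2 at an unadjusted p under 0.05, 1 by voom), with a median log2 fold change of 0.58. The groups of 4 of the 14 genes did not overlap, with mutants higher: Epcam, Tfcp2l1, Tfap2b and Elf5. Over all tested genes 25.1% had such groups, and 10.7% of entries above 0 and under the filter. Tfap2b and Elf5, with means of 0.329 and 0.166 RPKM, lay under the filter and were not tested. Of the 5 tested genes 3 had a log2 fold change above 0, while Hoxb7 and Krt18 had -0.16 and -0.22. Tfcp2l1, a transcription factor gene of tubular epithelium, was at 0.392, 0.505 and 0.318 RPKM across controls, against 0.652, 1.41 and 1.99 across mutants (log2 fold change 0.97, limma adjusted p 0.0905). Like Cdh16, it was highest in mutant replicate 3 and lowest in control replicate 3. Their part in the Cdh1 and Cdh16 values was not tested.

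Inside the cell classical cadherins bind beta-catenin and p120 catenin, and alpha-catenin links them to actin. Of 13 tested catenins and cytoplasmic partners 0 were called in limma (2 at an unadjusted p under 0.05, 0 by voom), and their median log2 fold change was -0.22, against -0.12 over all genes. Ctnnb1, the gene of beta-catenin, was at 385.0, 448.0 and 286.0 RPKM across controls, against 323.0, 263.0 and 260.0 across mutants. Its groups overlap through control replicate 3 (log2 fold change -0.39, limma adjusted p 0.264), and it passed without that library (0.0314). Leaving that library out raised the calls over all genes from 422, of which 244 lower, to 1083, of which 813 lower. For Ctnnd2, of the p120 family, and Jup, the gene of plakoglobin, the differences were -0.46 and -0.44 (log2), at limma adjusted p of 0.189 and 0.248. Nectins, a second adhesion family of these junctions, were called in 0 of 4 tested genes (1 at an unadjusted p under 0.05, 0 by voom). The lowest p among them was that of Nectin2 (log2 fold change -0.49, limma adjusted p 0.234; 0.047 without control replicate 3), and Nectin3 and Pvr had -0.13 (0.61) and -0.11 (0.809).

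Among 8 tested transcription factor genes known to repress cadherins, chiefly Cdh1, 0 were called in limma, with 4 at an unadjusted p under 0.05 and 1 by voom. Snai2 was at 15.6, 19.7 and 15.2 RPKM for control pools, compared with 21.3, 26.9 and 28.8 for mutant pools. Its groups do not overlap, and it did not pass (log2 fold change 0.59, limma adjusted p 0.068) except without control replicate 2 (0.0161), with median-of-ratios scaling (0.0296), quantile normalization (0.036) or voom (0.0335). Twist1 and Zeb2 differed by 0.68 and 0.44 (log2), at limma adjusted p of 0.103 and 0.175, both with groups that do not overlap. Tcf3 and Zeb1 went the other way, by -0.38 and -0.15 (limma adjusted p 0.175 and 0.485), also with groups that do not overlap. Over all tested genes 25.1% had such groups. Snai1, Twist2 and Tcf4 also lay below 0, by -0.45, -0.23 and -0.11 (limma adjusted p 0.274, 0.539 and 0.644), with overlapping groups. Of the 8 tested repressor genes 3 had a log2 fold change above 0, with a median of -0.13 against -0.12 over all genes.

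Of 14 genes for cleavage and processing of cadherins and related proteins, 5 had an unadjusted limma p under 0.05 and 2 passed by voom. In limma 1 was called, Tmtc2. It encodes a membrane enzyme of a family that adds mannose to cadherins. Tmtc2 was at 17.4, 15.1 and 18.7 RPKM across controls, against 10.7, 10.8 and 11.2 across mutants, and fell in limma by 0.62 on the log2 scale (adjusted p 0.029). The call was lost in 8 of 16 alternatives (limma adjusted p 0.0537 to 0.136), among them leaving out control replicate 1 or any 1 mutant library and both scalings. Among protocadherins and the Fat, Dchs and Celsr genes 1 of 12 tested was called in limma, against 3.13% of all tested genes. Of the 12, 4 had an unadjusted limma p under 0.05 and 3 passed by voom. Log2 fold changes were above 0 in 5 of the 12, with a median of -0.15 against -0.12 over all genes. Pcdh7, a protocadherin gene, rose in limma by 0.72 on the log2 scale (adjusted p 0.0366), with 2.57 ± 0.308 RPKM in control and 4.54 ± 0.464 in mutant pools (SD, n = 3 each). That call was lost without control replicate 1 or 2, without any 1 mutant library and with no filter (limma adjusted p 0.0783 to 0.13). Pcdh17 differed most among the 12 and went the other way, but did not pass (log2 fold change -0.96, limma adjusted p 0.0613). Its levels were 1.03, 0.815 and 1.89 RPKM across controls, against 0.448, 0.322 and 0.335 across mutants. Of 3 tested desmosome genes 0 were called, at an unadjusted p under 0.05 and by voom also 0, and Dsg2, Pkp2 and Dsp had log2 fold changes of 0.35, 0.12 and -0.09 (limma adjusted p 0.38, 0.742 and 0.831).

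**Figure D4:**
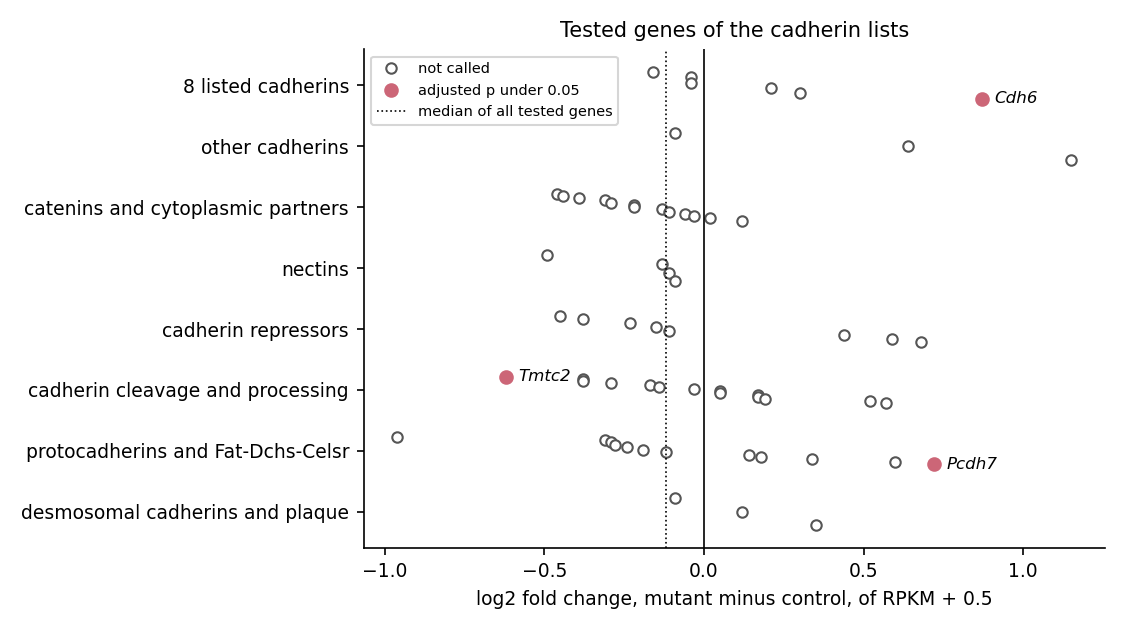
Log2 fold change, mutant minus control, of every tested gene in the 8 cadherin and junction lists, 1 row per list, with filled points for genes past an adjusted p of 0.05. Cdh6 (0.87), Pcdh7 (0.72) and Tmtc2 (-0.62) are the filled points, and most catenins lie to the left of the dotted median of all genes (-0.12).

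Likeness of pattern was measured as Pearson's r of log2(RPKM + 0.5) over the 6 libraries, with 10978 named genes of at least 1 RPKM. With 6 libraries in 2 genotypes many genes come close, so r only ranks them. For Cdh6 the 2 genes most alike were Abhd14a (r 0.9974; 3.29, 3.57 and 3.17 RPKM for control pools, compared with 6.75, 5.07 and 8.41 for mutant pools) and Ccl27a (0.9973), and 78 genes had an r of at least 0.95. For Cdh4 they were Cpt1c (0.9908) and Hgsnat (0.9875), with 29 such genes. For Cdh2 they were Epc2 (0.9946) and Cwc22 (0.993), with 46. For Cdh11, the most even of the 4, they were Sema6a (0.9767) and Lxn (0.9737), with 9.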

How the data were processed

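The authors deposited 1 table of RPKM values (27179 Entrez Gene entries, 6 libraries). Per the submitters' processing notes, reads were handled on mm10, with FastQC and limma. Subread appears in the sample columns, per the file headers. What counted the reads, on which annotation and with which strand setting, is not given in the sources used here. Symbols and coordinates came from RefSeq GRCm38.p6 (25275 entries matched) and transcripts from GENCODE M21, both of that build. Low RPKM values fall on steps of 1 read, so depth, gene length and whole reads (within 0.02) could be worked out. The smallest length that gave whole reads was taken, and such a length was found for 100.0% of 13463 tested genes. A true length that is a multiple of it, with its reads, would be missed. For Cdh3 the length found, 1997 bases, is shorter than its annotated coding sequence of 2466 bases. On simulated data 99.06% of 1174 genes came out right. A counted unit may be 1 read or a pair, and intervals on read ratios (exact binomial) cover counting error only.

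Genotypes were compared across all genes with limma 3.58.1 (R 4.3.3) on log2(RPKM + 0.5). Genes averaging 0.5 RPKM or more were kept, the variance prior followed a trend on the mean, and two-sided p-values were adjusted by Benjamini-Hochberg, with calls at 0.05; these fold changes understate the change of low genes. On data simulated for this comparison (13366 genes) it called 52.3% of 65 genes changed 1.5-fold and 94.0% of 67 changed 2-fold, and 9.04% of 177 calls were false. The simulation gave every gene the same fixed spread beyond counting error and had no library effects. That spread was not fitted to these libraries, so the shares may be too favourable for them. The members and gene lists were chosen with earlier results of these data known. Named genes are the 8 members, the called genes of each list or else up to 3 of lowest p, and the 2 genes most alike in pattern. Alternatives were pseudocount, filter, scaling, variance model, voom on whole reads, a replicate block and leaving out each library. Python 3.11.15 was used for the rest.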

Additional observations from a re-analysis of the deposited data

How the results depend on the processing

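Over 16 alternatives Cdh6 kept its direction (log2 fold change 0.74 to 1.03, limma adjusted p 0.00387 to 0.0776), and Cdh4 (0.20 to 0.44) and Cdh3 (0.10 to 0.37) kept theirs where tested. With no filter on low values 143 of all genes, 0 of the 8 members and 0 in the other lists were called. With voom these were 685 of all genes, 1 other cadherin and 6 in the other lists, and with median-of-ratios scaling 4 in the other lists, where the calls over all genes split into 282 higher and 154 lower (quantile normalization 264 and 163, deposited values 178 and 244). With 1 library left out, calls ranged from 148 to 1083 over all genes (1083 without control replicate 3, 148 without mutant replicate 2), 0 to 1 among the members, 0 to 1 among the other cadherins, 0 to 1 among the catenins and partners and 0 to 4 in the other lists. Signs turned for Cdh2 with median-of-ratios scaling (0.08), with quantile normalization (0.10), without control replicate 3 (0.00121) and without mutant replicate 2 (0.02; leaving out each library in turn gave -0.09 to 0.02). They also turned for Cdh11 with the same scalings (0.09 and 0.19), Cdh13 without control replicate 1 (0.02; range -0.41 to 0.02), Cdh24 without mutant replicate 2 (0.00233; range -0.17 to 0.00233), Nectin3 with quantile normalization (0.03), and Pvr with median-of-ratios scaling (0.00115), without control replicate 3 (0.05) and without mutant replicate 1 (0.05; range -0.36 to 0.05). None of these values passed, and the causes were not tested. With the replicate number as a block 393 genes were called, 1 of them a member, Cdh6 (log2 fold change 0.87, limma adjusted p 0.0235). Deviations from the group mean had r of 0.053, 0.157 and 0.153 between same-numbered libraries, against -0.146 to -0.006 between other numbers. Deviations within a group add up to 0, so an r above 0 with 1 library forces an r below 0 with another. These values therefore cannot decide whether a factor is shared by number. No label ties the numbers to a shared source and 1 r is under 0.1, so the block was not taken as the design. Depth limits Cdh8 and Cdh15, with 4 to 30 reads per library.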
